A study of Mus musculus with 3 samples.

Results

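The primitive endoderm genes examined here were Gata4, Gata6, Sox7, Sox17, Pdgfra, Dab2, Foxa2, Hnf4a, Amn and Cubn, chosen by name as genes of this lineage. Their values were not the rule of choice, but earlier results of these data were known. Every array probe whose RefSeq accession named one of them was used. They were 10 of the 23458 genes that could be named on the array and were read by 17 probes, with 5 genes read by 1 probe and 5 by 2 or more. Expression was measured in whole mouse blastocysts of the ICR strain, cultured from the zygote for 96 h in KSOM medium, to compare young embryos, aging embryos and aging embryos in which signaling from the chemokine CXCL5 to its receptor CXCR2 was suppressed. The mothers of the young embryos were 3 to 6 weeks old and those of the aging embryos 43 to 53 weeks old, and neither group was treated. The suppressed aging embryos, from mothers also 43 to 53 weeks old, were cultured with a neutralizing antibody to CXCL5 at 10 μg/ml together with a selective CXCR2 antagonist at 10 nM. All females were superovulated, and each condition was 1 pool of 30 expanded blastocysts on 1 array. No condition had a replicate, so no difference below has a replicate check and no test between conditions was possible.

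The primitive endoderm is a layer of the inner cell mass that comes to face the blastocyst cavity, and it later forms the visceral and parietal endoderm of the yolk sacs. Cells of the inner cell mass first carry both the epiblast factor NANOG and the endoderm factor GATA6. FGF4 from epiblast cells acts through FGF receptors and ERK to keep GATA6 on and NANOG off in the cells that become primitive endoderm, which then express SOX17, GATA4 and SOX7 and carry the receptor PDGFRA. Cubilin, amnionless and DAB2 serve the uptake of proteins by endocytosis in the visceral endoderm that follows. The arrays held RNA of the whole blastocyst, trophectoderm included, so fewer primitive endoderm cells and less of an RNA in each cell cannot be told apart in any of these values.

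Levels below are the log2 of the deposited spot intensity after subtraction of the 75th percentile of the array, or an intensity of 144.9 in the young, 154.5 in the aging and 122.3 in the suppressed sample. A level of 0 is therefore the brightness of a probe at that percentile, and a difference of 1 between arrays is 2-fold. The scanner software called 56.4% to 58.7% of the probes above background per array, no spot was saturated, and all 3 arrays were on 1 slide and scanned together. Replicate spots of a probe on 1 array had a median SD of 0.05 for probes at a level of 0 or more and of 0.16 to 0.18 for dimmer probes. This is the error of the spot alone and not the spread between embryos, and each probe of the 10 genes had 1 spot. As a check of the tissue, epiblast markers were above background on all 3 arrays in 10 of 10 genes and trophectoderm markers in 11 of 12.

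Of the 17 probes, 14 were above background in young, 16 in aging and 14 in suppressed aging embryos. All 10 genes had at least 1 probe above background on every array, so none was lost to the filter on dim probes. Where a gene had several probes, the one with the highest mean level gave the value of the gene. For the 10 genes the other probes are described beside it, and for genes of the other lists they are not. Probes bind with different strength, so the level of one probe was not set against that of another, and only the differences of each probe between arrays were compared.

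Upstream sequences of 4 of the genes are shown because these genes were past 2-fold in a comparison and had a window reaching before the first base of the gene (Hnf4a, Foxa2, Amn) or held GATA motifs near the start (Dab2). They are from RefSeq on the build GRCm38.p6 of the C57BL/6J reference, not from the ICR mice measured here. Each run is written from 5′ to 3′ along the strand of the gene and ends before the first base of the gene in the gene table. The Hnf4a run therefore stops short of the start of its window, since the gene table begins the gene further upstream. Capitals mark matches to AGATAA or TGATAA (motifs of GATA factors) or to ACAAT (the core motif of SOX factors) on either strand.
Hnf4a, chr2:163506607-163506810, plus strand: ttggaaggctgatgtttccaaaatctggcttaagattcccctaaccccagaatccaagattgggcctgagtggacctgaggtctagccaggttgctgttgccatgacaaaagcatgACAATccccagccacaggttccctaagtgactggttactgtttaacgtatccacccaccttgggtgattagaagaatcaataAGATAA
Foxa2, chr2:148046970-148047219, minus strand: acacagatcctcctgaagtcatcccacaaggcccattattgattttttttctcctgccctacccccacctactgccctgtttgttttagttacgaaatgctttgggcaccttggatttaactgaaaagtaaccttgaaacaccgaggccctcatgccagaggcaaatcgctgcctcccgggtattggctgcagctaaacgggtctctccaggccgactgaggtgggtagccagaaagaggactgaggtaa
Amn, chr12:111270846-111271095, plus strand: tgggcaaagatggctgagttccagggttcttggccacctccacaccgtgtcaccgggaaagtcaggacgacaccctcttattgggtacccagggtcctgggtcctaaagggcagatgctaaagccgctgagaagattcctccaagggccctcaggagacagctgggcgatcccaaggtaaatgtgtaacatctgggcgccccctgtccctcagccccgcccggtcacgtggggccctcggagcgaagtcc
Dab2, chr15:6299539-6299787, plus strand: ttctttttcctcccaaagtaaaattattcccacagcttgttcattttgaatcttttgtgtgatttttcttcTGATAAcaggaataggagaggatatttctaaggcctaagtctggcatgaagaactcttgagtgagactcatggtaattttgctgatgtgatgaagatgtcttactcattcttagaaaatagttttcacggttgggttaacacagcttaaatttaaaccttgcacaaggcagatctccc

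Windows of 300 bases, 250 before and 50 from an annotated start, were listed for 6 of the 10 genes, with 10 windows in all. Both strands were searched, and no matches overlapped each other in these windows. The Hnf4a window shown held AGATAA at position -52 and ACAAT at position -134, counted to the first base of the match from the start at 1, with -1 the base before it. In the Dab2 window, TGATAA lay at position -179, and AGATAA lay on the other strand at position 15, outside the run shown. A window at an inner start of Foxa2 held AGATAA at position -183 from that start, whereas the Foxa2 run shown above held none of the 3 motifs. The 7 other windows, those of Amn, Cubn and Pdgfra among them, held none of these letters. Over all 32851 windows of the reference table, 18.6% held AGATAA or TGATAA (11.2% and 9.05% alone) and 31.0% held ACAAT. A match describes the sequence and does not show that a factor binds there.

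GATA6, the factor that marks the first step towards primitive endoderm, is read by 1 probe. Gata6 had a log2 level of 1.55 in young, 2.54 in aging and 1.76 in suppressed aging embryos. It was highest in aging embryos, with young and suppressed aging embryos near each other. The log2 difference was 0.99 for aging against young (1.99-fold), just under 2-fold, -0.77 for suppressed aging against aging and 0.22 for suppressed aging against young. Under 9 other settings of the processing, the value for aging against young lay between 0.85 and 1.03 and was past 2-fold in 2.

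GATA4 acts after GATA6 and maintains the endoderm program. The brighter Gata4 probe read log2 levels of 3.30 in young, 3.26 in aging and 3.24 in suppressed aging embryos. These 3 values lay within 0.06 of each other, which is about the error of a spot, and no direction is drawn from them. The second Gata4 probe, which was designed on another transcript, gave 2.53, 1.77 and 1.50 in the same order. It was highest in young embryos, with log2 differences of -0.75 for aging against young, -0.28 for suppressed aging against aging and -1.03 for suppressed aging against young. The array does not show which of the Gata4 probes follows the gene.

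SOX17 and SOX7 are related factors of the SOX family that come on in cells already committed to primitive endoderm. The brighter Sox17 probe had log2 levels of 0.91 in young, -0.62 in aging and 0.27 in suppressed aging embryos. It was lowest in aging embryos, in the opposite order to Gata6. The log2 difference was -1.53 for aging against young (2.88-fold lower), 0.89 for suppressed aging against aging (1.85-fold higher) and -0.64 for suppressed aging against young. The second Sox17 probe was designed on the same transcript and read -1.74, -1.41 and -1.07 on these arrays. It was lowest in young embryos, with log2 differences of 0.33, 0.34 and 0.67 in the same 3 comparisons, so both probes were higher on the suppressed aging than on the aging array but opposed each other in aging against young. With the mean of both probes, the log2 difference of Sox17 in aging against young was -0.60 and no longer past 2-fold. The only Sox7 probe had log2 levels of -1.39 in young, -1.03 in aging and -1.73 in suppressed aging embryos. It was highest in aging and lowest in suppressed aging embryos. Its log2 difference was 0.36 for aging against young, -0.69 for suppressed aging against aging and -0.33 for suppressed aging against young.

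FOXA2 and HNF4A are factors of endoderm derivatives, the first shared by visceral endoderm and later definitive endoderm and the second a nuclear receptor that drives genes of visceral endoderm and liver. Foxa2 had log2 levels of 0.96 in young, 1.01 in aging and -0.99 in suppressed aging embryos, from intensities of 280.8, 311.9 and 61.7. Young and aging embryos were near each other, and the suppressed aging embryos stood alone as low. The log2 difference was 0.06 for aging against young, -2.0 for suppressed aging against aging (4.0-fold lower) and -1.94 for suppressed aging against young (3.84-fold lower). Both differences after suppression were past 2-fold under each of 9 other settings, with a range of -2.09 to -1.48 against aging and of -1.99 to -1.44 against young. Foxa2 was read by 1 probe, so no second probe bears on it. That probe was above background on all arrays and had no outlier spot. The settings on outliers, dim probes and the mean over probes could therefore not move these values appreciably.

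Hnf4a had log2 levels of -2.17 in young, -0.67 in aging and -1.42 in suppressed aging embryos in its brighter probe. It was highest in aging and lowest in young embryos, with the suppressed aging embryos between them. The log2 difference was 1.50 for aging against young (2.84-fold higher), -0.75 for suppressed aging against aging and 0.75 for suppressed aging against young. The probe was dim, at an intensity of 32.1 on the young array. With another background correction (normexp) the difference between aging and young was 0.66. That correction added an offset of 50 to each intensity, which by itself shrinks log2 differences of so dim a probe. The second Hnf4a probe was above background on the aging array alone, at a log2 level of -4.03, which makes aging at least 0.17 higher than young and gives no value for the other 2 comparisons.

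PDGFRA, the receptor for PDGF-A that marks primitive endoderm on the cell surface, had 3 probes. The brightest Pdgfra probe read log2 levels of 0.31 in young, 1.59 in aging and 0.88 in suppressed aging embryos, from intensities of 179.8, 464.9 and 225.5. It was highest in aging and lowest in young embryos, the same order as Hnf4a. The log2 difference was 1.28 for aging against young (2.43-fold higher), -0.71 for suppressed aging against aging and 0.57 for suppressed aging against young. The first of these was past 2-fold under each of 9 other settings, between 1.10 and 1.32. Several of these could not move it, since the mean over probes and the filters on dim probes return the same probe. The second Pdgfra probe, designed on a noncoding transcript, was above background on the aging array alone, at a log2 level of -3.85. This made aging at least 0.24 higher than young and put the log2 difference of suppressed aging against aging at -0.08 or lower. The third probe, designed on another coding transcript, was not well above background on any array.

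**Figure D1:**
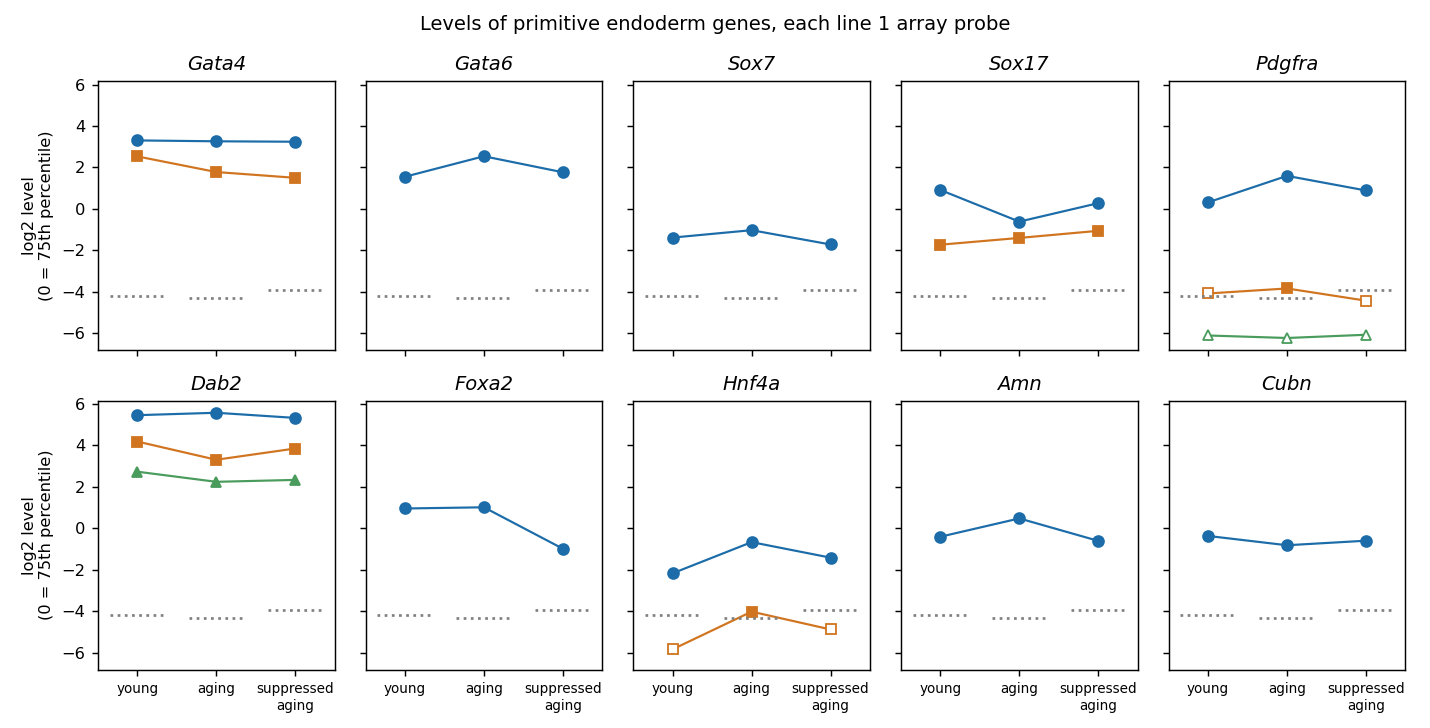
Log2 level (0 is the 75th percentile of the array) of each probe of the 10 genes on the young, aging and suppressed aging array, with 1 line per probe. Filled symbols are above background and open symbols are not. Dotted lines are the detection limit, the lowest level of any probe above background on that array. Gata6, Pdgfra, Hnf4a and Amn peak on the aging array, the brighter Sox17 probe is lowest there, and Foxa2 is low on the suppressed aging array.

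DAB2, amnionless and cubilin belong to the endocytic machinery of the primitive endoderm and its visceral derivative. Amnionless carries cubilin to the membrane, cubilin binds the proteins to be taken up, and DAB2 is a clathrin adaptor for such receptors. Amn had log2 levels of -0.41 in young, 0.48 in aging and -0.61 in suppressed aging embryos. It was high in aging embryos, with young and suppressed aging embryos near each other. The log2 difference was 0.88 for aging against young (1.84-fold higher), -1.08 for suppressed aging against aging (2.12-fold lower) and -0.20 for suppressed aging against young. With normexp the second of these was -0.76 and so under 2-fold, and under the 8 remaining settings it stayed past 2-fold. Amn was read by 1 probe, so the mean over probes and the filters on dim probes could not change this.

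Cubn, the partner of Amn, had log2 levels of -0.37 in young, -0.82 in aging and -0.60 in suppressed aging embryos. It was lowest in aging embryos, where Amn was highest. Its log2 difference was -0.45 for aging against young, 0.22 for suppressed aging against aging and -0.23 for suppressed aging against young, all under 2-fold.

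Dab2 had 3 probes, each above background on every array. The brightest Dab2 probe read log2 levels of 5.46 in young, 5.58 in aging and 5.33 in suppressed aging embryos. The second gave 4.19, 3.31 and 3.85, and the third 2.73, 2.24 and 2.34. The brightest probe was highest in aging embryos, whereas both others were highest in young and lowest in aging embryos. In aging against young the log2 differences were 0.12, -0.88 and -0.49. In suppressed aging against aging they were -0.25, 0.54 and 0.09, and in suppressed aging against young -0.13, -0.34 and -0.40. The mean over the 3 probes turned the direction of Dab2 in the first 2 comparisons, to -0.42 and 0.13, so no direction can be given for the gene there.

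Probes of one gene often disagreed on these arrays. Of the 3 genes with at least 2 probes above background on all arrays, Sox17 and Dab2 had probes of opposite sign in aging against young. Over all genes with 2 measured probes, both had the same sign in 56.7% of 4861 genes in aging against young, 54.8% of 4830 in suppressed aging against aging and 56.1% of 4817 in suppressed aging against young. Where the brighter probe was past 2-fold, the second had its sign in 59.3%, 60.6% and 58.0% of genes. Values of Gata6, Sox7, Foxa2, Amn and Cubn rest on 1 probe each. In the other lists, Otx2, Trf, Zfpm1, Tfap2c, Sparc, Lamc1, Hspg2 and Lamb1, among others, had 2 or 3 probes. Their values below are those of the brightest alone.

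Aging embryos were compared with young embryos to ask which genes differ with the age of the mother. Pdgfra and Hnf4a were over 2-fold higher and Sox17 was over 2-fold lower in aging embryos, so 2 of 10 genes were past 2-fold upwards and 1 of 10 downwards. Over the 16139 genes with a difference in this comparison, 9.99% were past 2-fold upwards and 9.4% downwards, and 2.74% were past 5-fold either way against 0 of the 10. Without regard to size, 7 of 10 were higher in aging embryos, against 51.9% of all genes. That count takes each gene at its brightest probe, so it includes Foxa2, whose difference was about the error of a spot, and Dab2, whose other probes had the opposite sign. The log2 differences ran from -1.53 to 1.50 with a median of 0.24, and the median of all genes was 0.03. The counts past 2-fold are near the background and say nothing particular about these genes.

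Suppressed aging embryos were compared with aging embryos to ask what blocking the chemokine signal changes. Foxa2 and Amn were over 2-fold lower in suppressed aging embryos, 2 of 10 genes against 8.6% of the 15860 genes compared. No primitive endoderm gene was past 2-fold upwards, against 8.98%, and 0 were past 5-fold, against 2.42%. Without regard to size, 8 of 10 were lower, against 50.2% of all genes, and the 2 that were higher were Sox17 and Cubn. The lower ones include Gata4 and Dab2, for which no direction was given above. The log2 differences ran from -2.0 to 0.89 with a median of -0.70, and the median of all genes was -0.003. The counts past 2-fold are again near the background. Apart from Foxa2 and Amn, the values of Gata6, Hnf4a, Pdgfra and Sox7 lay between -0.77 and -0.69. The median was smaller in size under normexp, at -0.40, where the added offset of 50 shrinks differences of dim probes. It stayed below 0 under each other setting.

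Suppressed aging embryos were set beside young embryos to ask what difference is left. Foxa2 alone was past 2-fold, downwards, which is 1 of 10 genes against 7.8% of the 15922 genes compared. Upwards there were 0, against 8.91%, and past 5-fold 0, against 2.57%. In this comparison 7 of 10 were lower, against 47.5% of all genes, with a median log2 difference of -0.17 beside 0.03 for all genes. The lower ones include Gata4, at about the error of a spot in its brighter probe, and Sox17, whose second probe had the opposite sign. The second Gata4 probe, at -1.03, was past 2-fold downwards and is not part of the count past 2-fold. The 3 that were higher were Hnf4a at 0.75, Pdgfra at 0.57 and Gata6 at 0.22. Each pair of the 3 comparisons shares 1 array, so the signs of Gata6, Pdgfra, Hnf4a, Amn and Sox17 in the first comparison and in the second are not independent of each other.

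**Figure D2:**
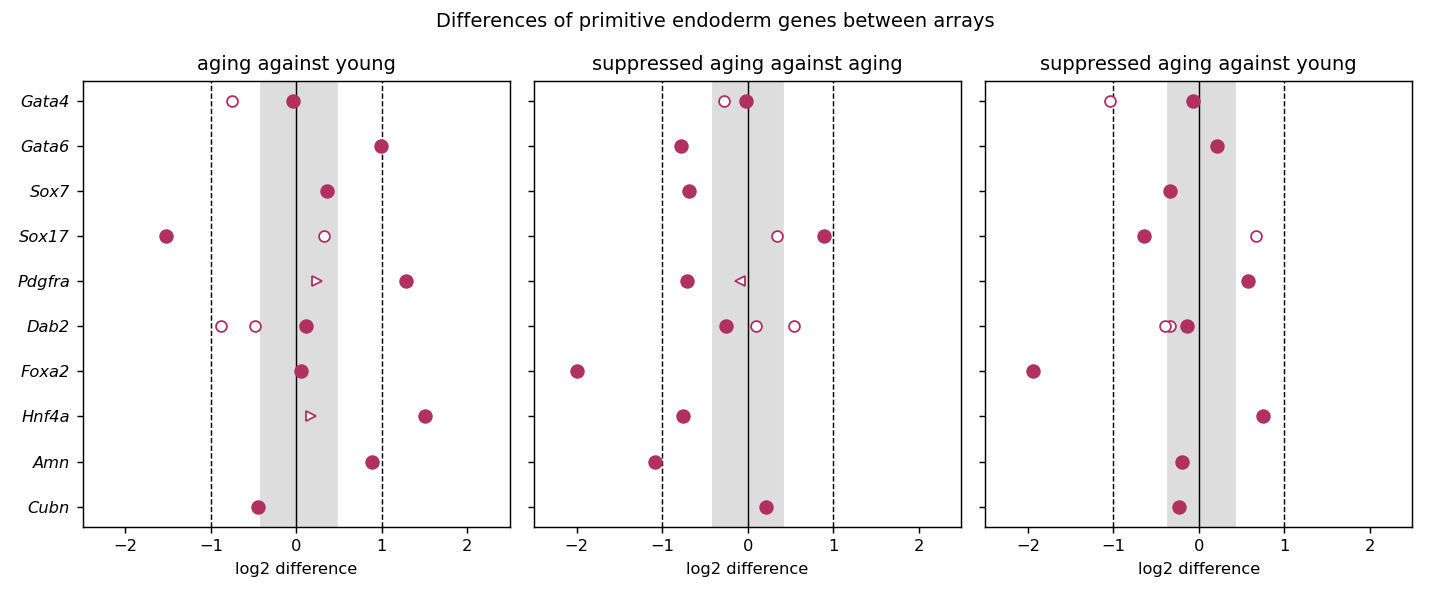
Log2 difference of each probe of the 10 genes in the 3 comparisons. Filled points are the probe that gives the value of the gene, open points the other probes, triangles bounds that point the way the difference may extend, dashed lines 2-fold, and the grey band the middle quartiles of all genes. Foxa2 lies near -2 in both comparisons with suppressed aging embryos, and the probes of Sox17 and Dab2 lie on both sides of 0 in aging against young.

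The epiblast is the sister lineage of the primitive endoderm in the inner cell mass, and its markers had a median log2 difference of 0.35 in aging against young, beside 0.24 for the primitive endoderm genes. Of the 10 epiblast markers, 8 were higher in aging embryos, and the pluripotency factors Sox2 (1.37), Klf2 (1.31) and Esrrb (1.11) were past 2-fold. In suppressed aging against aging the epiblast median was -0.21, beside -0.70 for the primitive endoderm genes, and 8 of 10 were lower in both lists. Sox2 was the epiblast marker past 2-fold in suppressed aging against young, at 1.10, and the median was 0.27, beside -0.17 for the primitive endoderm genes. Trophectoderm markers had medians of -0.20, 0.18 and -0.08 in the same order, of opposite sign to the primitive endoderm genes in the first 2 comparisons. Among the 12 trophectoderm markers, Krt7 (-1.17) and Tfap2c (-1.16) were over 2-fold lower in aging against young, and Hand1, above background on the aging array alone, had a log2 difference of at least 2.85 in aging against young and of -2.58 or lower in suppressed aging against aging. Levels of both other lineages thus differed between the arrays too, and their part in the values above was not tested.

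FGF4, FGF receptors and ERK instruct the primitive endoderm fate, and 16 genes of this pathway were read. Fgf4, the ligand made by the epiblast, had log2 levels of -0.32 in young, 0.80 in aging and 0.13 in suppressed aging embryos. Its log2 difference was 1.12 for aging against young, -0.67 for suppressed aging against aging and 0.45 for suppressed aging against young. Fgf4 was thus highest in aging embryos. The receptors Fgfr1 and Fgfr2 differed by 0.59 and 0.30 in aging against young and by -0.20 and 0.35 in suppressed aging against aging. Etv4, an ETS factor that responds to FGF, was above background on the young array alone, with a log2 difference of -2.62 or lower in aging against young and of -2.23 or lower in suppressed aging against young. Spry4, a feedback inhibitor, was past 2-fold in suppressed aging against aging, at -1.02. It was dim, at a log2 level of -3.78 on the suppressed aging array, where the detection limit was -3.93. Past 2-fold were 1 gene upwards and 1 downwards, then 0 and 1, then 0 and 1, and the medians were 0.22, 0.11 and 0.34.

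Among ligands of PDGFRA and its sister receptor, Pdgfa, the ligand made in the blastocyst, differed by -0.49 in aging against young and by 0.56 in suppressed aging against aging, the opposite signs to Pdgfra itself. Pdgfc, another PDGFRA ligand, was above background on the aging array alone, with a log2 difference of at least 4.05 in aging against young and of -3.78 or lower in suppressed aging against aging. Of the 5 genes of this list, the ligands and Pdgfrb, 1 was past 2-fold upwards in aging against young, 1 downwards in suppressed aging against aging and 0 in suppressed aging against young, and the medians over those compared, bounds included, were 0.48, 0.05 and 0.13.

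The 8 partners of cubilin and amnionless, among them the co-receptor megalin (Lrp2), were above background on all arrays. None of these partners was past 2-fold in any comparison, with medians of 0.26, -0.09 and 0.18. Lrp2 had log2 levels of 5.57 in young, 5.22 in aging and 5.34 in suppressed aging embryos, and was the 1 partner of 8 that was lower in aging than in young embryos. The motor protein gene Myo6 (0.68), the transcobalamin gene Tcn2 (0.49) and the adaptor gene Gipc1 (0.35) were higher in aging than in young embryos. Their log2 differences in suppressed aging against aging were -0.49, -0.22 and -0.17, so these 3 were highest on the aging array. Not all partners shared this order. Cd320 (0.49) and Lrpap1 (0.16) were also higher in aging than in young embryos but rose again on the suppressed aging array, by 0.21 and 0.07. In suppressed aging against aging, 3 of the 8 partners were higher and 5 lower. With 1 array per condition, a shared order of levels does not link genes.

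The basement membrane list held genes made in quantity by parietal endoderm, such as laminins and collagen IV. It also held genes whose products are not parts of that membrane, among them Srgn, Plat and Thbd. Its medians were -0.25, 0.20 and -0.25, signs that in the first 2 comparisons are opposite to those of the primitive endoderm genes. Of these 14 genes, 4 were over 2-fold lower and 0 higher in aging against young, namely the proteoglycan Srgn (-2.68), the protease gene Plat (-2.04 or lower), Sparc (-1.23) and the laminin chain Lamc1 (-1.15). In suppressed aging against aging, Plat (at least 1.83), the perlecan gene Hspg2 (1.41) and Lamb1 (1.05) were over 2-fold higher and Thbd (-1.09) was lower. Against young embryos, suppressed aging embryos had higher Lamb1 (1.05) and Hspg2 (1.02) and lower Srgn (-2.42) and Sparc (-1.02). Srgn was dim in aging and suppressed aging embryos, at log2 levels of -3.86 and -3.60, near the detection limit.

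Genes of the mature visceral endoderm were partly undetected, and 6 of 16, namely Afp, Ttr, Apoa4, Apob, Rbp4 and Cer1, were above background on no array. The median log2 differences of the 10 genes compared were 0.06, -0.32 and -0.33. In aging against young, Otx2 (1.10) and the transferrin gene Trf (1.08) were over 2-fold higher and Apoa1 (-1.20), an apolipoprotein gene, was lower. Trf was dim, at a log2 level of -3.40 on the young array, where the detection limit was -4.20. In suppressed aging against aging, Otx2 (-1.94), a partner factor of Foxa2 in anterior visceral endoderm, was over 2-fold lower beside Foxa2, whereas Hhex, a marker of the same cells, was higher by 2.05. In suppressed aging against young, the log2 difference of Hhex was 1.94.

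Relatives and cofactors of the GATA, SOX, FOXA and HNF4 members, of which Gata2 and Gata3 also stand among the trophectoderm markers, had medians of -0.20, 0.19 and 0.11, and 3 of these 10 genes were above background on no array. Past 2-fold were 2 upwards and 0 downwards, then 0 and 2, then 1 and 1. Foxa3, a relative of Foxa2, had log2 levels of -0.63 in young, -1.56 in aging and -3.09 in suppressed aging embryos. Its log2 difference was -1.53 for suppressed aging against aging and -2.47 for suppressed aging against young, so Foxa3 and Foxa2 were both lowest on the suppressed aging array. Unlike Foxa2 (0.06), Foxa3 was also lower in aging than in young embryos (-0.93). Foxa1 was above background on the young array alone, with log2 differences from young of -0.73 or lower in aging and -0.34 or lower in suppressed aging embryos. Zfpm1, which encodes a cofactor of GATA proteins, had log2 differences of 1.28 in aging against young and -1.18 in suppressed aging against aging. It was highest on the aging array. Gata1 was not well above background on the young array and its log2 difference from young was at least 3.87 in aging and at least 4.35 in suppressed aging embryos. Of the markers of cumulus and granulosa cells, which surround the oocyte, 5 of 8 were above background on no array, among them Fshr and Inha. In contrast, the Foxl2 probe was bright, at log2 levels of 8.66 in young, 8.54 in aging and 8.77 in suppressed aging embryos. What gave this signal was not tested. The 3 that were above background on all arrays, Foxl2, Cyp19a1 and Amh, differed by -0.46 to -0.12 in aging against young, by 0.11 to 0.30 in suppressed aging against aging and by -0.36 to 0.17 in suppressed aging against young. Their medians were -0.13, 0.23 and 0.11, none was past 2-fold, and their part in the values of the primitive endoderm genes was not tested. The 15 housekeeping genes had a median log2 difference of 0.03 in each comparison, with 1 gene past 2-fold, Gusb, at -1.27 in aging against young.

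**Figure D3:**
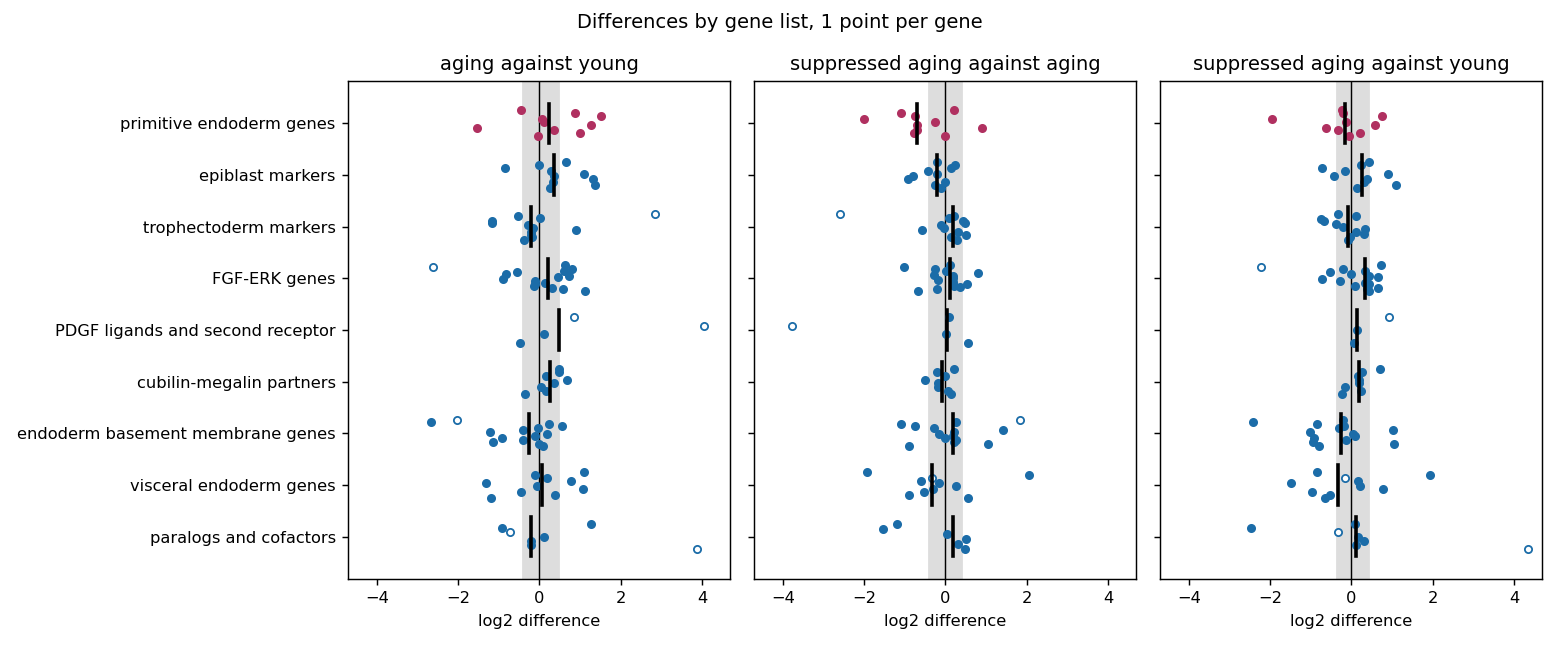
Log2 difference of each gene in the primitive endoderm list and in 8 other lists, with 1 point per gene for the 3 comparisons. Black bars are medians, open points are bounds, and the grey band holds the middle quartiles of all genes. The primitive endoderm median is 0.24, -0.70 and -0.17 from left to right, and that of the trophectoderm markers is -0.20, 0.18 and -0.08.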

How the data were processed

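Genes were read on 3 one-colour (Cy3) Agilent mouse arrays. The authors deposited spot intensity values, background-subtracted and detrended by Feature Extraction 12.0.3.1 per the labels and file headers, not normalized between arrays. Their own value table held the same intensity times 1 constant per array. The paper and the labels describe different RNA amplification, and which was used is not visible in the files.

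Spots marked as outliers were left out, the log2 of the deposited intensity was averaged over the spots of a probe and lowered by the array's own 75th percentile. Values on every array were held by 56591 of 56605 probes, of which 33759 were named through RefSeq accessions. A probe above background on 1 of 2 arrays gave a bound. On the other array it took the higher of the probe's own level and the detection limit. That limit was the lowest log2 level of any probe above background, -4.20 (young), -4.32 (aging) or -3.93 (suppressed aging). Some probes brighter than the limit were not called above background. Where the level above background did not exceed the one taken on the other array, no value was given. A probe above background on neither array gave no value.

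Members and lists were chosen with earlier results of these data known. The text names all members and, from each of the 10 other lists (FGF-ERK, PDGF, cubilin-megalin partners, basement membrane, visceral endoderm, paralogs and cofactors, epiblast, trophectoderm, cumulus and granulosa, housekeeping), up to 5 genes past 2-fold. Fgfr1, Fgfr2, Pdgfa, Lrp2, Myo6, Tcn2, Gipc1, Cd320, Lrpap1, Foxa1, the cumulus markers and genes named as undetected were chosen after their values were seen. The values of 1 listed gene are not reported here.

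With 1 array per condition no test was made. The alternatives were normexp (limma 3.58.1, offset 50), quantile normalization, centring on probes above background everywhere or on housekeeping genes, the authors' values, outliers kept, the mean over probes, other filters on dim probes and a 5-fold threshold. Procedures were tested on simulated data. Python 3.11.15, NumPy 2.4.6, pandas 2.3.3, Matplotlib 3.10.9 and R 4.3.3 were used.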

Additional observations from a re-analysis of the deposited data

How the results depend on the processing

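With 1 array per condition, no replicate could be left out, and precision is limited by that number. No paired analysis was possible because the conditions had 1 array each. Not every alternative could act on each gene. For a gene with 1 measured probe, the mean over probes and the filters on dim probes return the main value. Other centring and the authors' values shift all genes of an array alike. The counts of primitive endoderm genes past 2-fold in aging against young and in suppressed aging against young stayed within 1.5 times under the alternatives other than the 5-fold threshold, which left 0 genes in each of the 3 comparisons. In suppressed aging against aging, normexp left 1 gene past 2-fold, Foxa2, in place of 2. The median log2 difference kept its sign under each alternative in each comparison. It moved to -0.40 with normexp and to -0.79 with the authors' values in suppressed aging against aging, and to -0.078 with normexp in suppressed aging against young. The authors' values carry their own constant per array (3.457 in young, 3.339 in aging and 3.963 in suppressed aging) and were not centred further. With them the median of all genes moved by -0.09 in suppressed aging against aging. Leaving out the filter on dim probes moved the median of all genes by -0.14 in aging against young and by 0.14 in suppressed aging against aging, whereas members, all above background, kept their values. Among single genes, the direction turned for Dab2 with the mean over probes in aging against young (-0.42) and in suppressed aging against aging (0.13), for Sox17 with that mean in suppressed aging against young (0.02), and for Gata4 with normexp in aging against young (0.11) and suppressed aging against young (0.007). The dim probes of Hnf4a and Sox7 were smaller in size under normexp, at -0.22 and -0.38 in suppressed aging against aging. This setting added an offset of 50 to each intensity, which by itself shrinks log2 differences of dim probes. Intensities were 32.1 to 97.2 for the Hnf4a probe and 37.0 to 75.5 for the Sox7 probe. How much of the change the offset accounts for was not tested.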
